A study of Mus musculus with 6 samples.

Results

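The 33 genes described here encode the factors of blood clotting and of fibrinolysis, the enzymatic removal of clots. They were taken by gene symbol from the deposited expression table, which lists 16123 genes. All 33 were present, and 29 of them reached the mean of 1 FPKM (fragments scaled by transcript length and library size) that was required for testing. The remaining 4, F13a1, Thbd, Plat and Plau, were too low. The 3 exercise libraries came from healthy adult mice that each ran 22 km over 6 weeks. Their livers were taken 24 h after the last training. The 3 sedentary libraries came from mice that did no treadmill training. All livers were perfused with phosphate-buffered saline before RNA extraction, and the labels give neither genotype, strain, sex nor age beyond adult. The study asked how moderate exercise changes liver metabolism and the lactylation of liver proteins.

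The liver makes most of the clotting proteins of blood plasma. In the clotting cascade, inactive proteases activate each other in turn until thrombin, the product of F2, cuts fibrinogen into fibrin. Tissue factor starts this in a wound, and the contact factors start it on charged surfaces. Inhibitors such as antithrombin hold the cascade in check, and plasmin, made from plasminogen, dissolves fibrin again.

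Exercise libraries held 17941303 to 18067298 counts and sedentary libraries 18164094 to 18371949. Libraries of the same group were close to each other, with a common biological coefficient of variation of 1.84% over the tested genes. The design text gives 3 mice a group, but the labels do not say whether a library holds 1 mouse or a pool. Over genes with 20 to under 2000 reads in a pair of libraries, a chi-square per gene was compared with counting noise, which gives about 1. It was 1.134 to 1.217 between libraries of a group and 5.075 to 5.505 between the groups. The spread within a group was thus near counting noise. The p-values and SDs below measure that spread alone, which may be largely technical and may hold little of the variation between mice. Hepatocyte markers were abundant in every library, with a summed level of 135830 to 136130 TPM (a level per length, scaled to a fixed library sum) in exercise and 135040 to 136780 TPM in sedentary libraries. Alb, which encodes albumin, averaged 46012 FPKM in exercise and 46244 FPKM in sedentary libraries. By counts scaled with TMM factors, as tested below, Alb was lower in exercise (log2 fold change −0.08, edgeR adjusted p = 7.96e-06).

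Promoter windows are shown for the 3 fibrinogen chain genes, which lie in 1 cluster and were all lower after exercise, and for the neighbours F11 and Klkb1, of which F11 but not Klkb1 passed the test with TMM scaling. Each window runs from 250 bases before to 50 bases after the start of the gene in RefSeq, build GRCm38.p6, and is written 5′ to 3′ on the strand of the gene. Fgb is shown at chr3:83049814-83050113 on the minus strand, Fga at chr3:83025903-83026202 and Fgg at chr3:83007474-83007773 on the plus strand. F11 is shown at chr8:45261982-45262281 and Klkb1 at chr8:45294786-45295085, both on the minus strand. Capitals mark matches to any of 4 motifs on either strand.
Fgb: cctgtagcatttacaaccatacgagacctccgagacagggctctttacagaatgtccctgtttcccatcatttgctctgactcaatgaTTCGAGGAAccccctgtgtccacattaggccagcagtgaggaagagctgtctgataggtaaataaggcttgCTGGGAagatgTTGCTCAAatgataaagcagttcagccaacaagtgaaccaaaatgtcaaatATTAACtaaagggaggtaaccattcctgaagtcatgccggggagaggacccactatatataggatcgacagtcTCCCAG
Fga: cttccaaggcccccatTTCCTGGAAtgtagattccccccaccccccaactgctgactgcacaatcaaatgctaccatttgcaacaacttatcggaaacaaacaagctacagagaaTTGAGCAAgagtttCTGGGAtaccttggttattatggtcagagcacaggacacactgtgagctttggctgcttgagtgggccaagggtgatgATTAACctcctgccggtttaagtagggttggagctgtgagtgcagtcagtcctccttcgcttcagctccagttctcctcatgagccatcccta
Fgg: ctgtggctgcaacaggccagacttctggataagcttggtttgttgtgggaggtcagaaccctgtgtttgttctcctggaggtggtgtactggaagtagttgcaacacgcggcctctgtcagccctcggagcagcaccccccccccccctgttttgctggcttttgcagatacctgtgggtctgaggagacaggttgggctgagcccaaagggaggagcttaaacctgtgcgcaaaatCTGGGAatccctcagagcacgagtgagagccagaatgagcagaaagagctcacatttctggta
F11: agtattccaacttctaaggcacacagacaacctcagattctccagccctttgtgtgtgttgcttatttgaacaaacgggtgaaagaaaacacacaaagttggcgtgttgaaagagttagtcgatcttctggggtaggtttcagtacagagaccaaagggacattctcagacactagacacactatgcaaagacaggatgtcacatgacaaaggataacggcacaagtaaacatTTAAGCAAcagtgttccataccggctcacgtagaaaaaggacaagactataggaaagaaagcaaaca
Klkb1: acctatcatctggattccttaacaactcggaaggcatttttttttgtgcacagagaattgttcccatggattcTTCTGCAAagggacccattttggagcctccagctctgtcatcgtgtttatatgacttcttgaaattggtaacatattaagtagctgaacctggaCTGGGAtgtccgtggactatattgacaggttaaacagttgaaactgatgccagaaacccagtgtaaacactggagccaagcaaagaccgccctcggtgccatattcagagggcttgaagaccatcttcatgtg

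The motifs searched were CTGGGA, known from rat and human fibrinogen genes as an interleukin-6 response element, TTCNNNGAA, which STAT factors bind, GTTAAT, which is part of the HNF1 site, and TTGCNNAA, a form of the C/EBP motif. CTGGGA stood at positions −91 to −86 in Fgb, −121 to −116 in Fga and −13 to −8 in Fgg, where 1 is the first transcribed base, and in Fgb also on the reverse strand at 45 to 50. In Fgb and Fga a STAT motif lay at −162 to −154 and −234 to −226, a reverse GTTAAT at −29 to −24 and −43 to −38, and a C/EBP motif at −80 to −73 and, reversed, at −135 to −128. The Fgg window held none of these 3. F11 had a reverse C/EBP match at −17 to −10, and Klkb1 had 1 at −177 to −170 beside CTGGGA at −83 to −78. The STAT motif reads the same on both strands, and otherwise no match overlapped another. Of the 25 members with a window in the table, 14 held CTGGGA, 4 the STAT motif, 6 GTTAAT and 9 the C/EBP motif. Over all 32851 windows of the table these motifs occurred in 31.8%, 8.3%, 7.1% and 10.8%. Among the 10 members with a window that were lower under every scaling used below, 5, 2, 3 and 5 held them, in that order. Of the 15 other members, 9, 2, 3 and 4 did. These are matches of letters and say nothing about binding.

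Most tested members were lower in liver after exercise. Of 29, 19 fell (65.5%), F8 alone rose by TMM-scaled counts, and 9 did not pass the test (edgeR quasi-likelihood test, adjusted p under 0.05 over all tested genes). Over all 10266 tested genes, 19.0% fell and 19.1% rose. The median log2 fold change of the members was −0.14, beside −0.00 over all tested genes. By counts scaled with TMM factors to a common library total (CPM below), the groups did not overlap in 20 members (69.0%), and did not overlap in 47.0% of all tested genes. Those 20 are the genes that passed, 19 of them lower. Most changes were small, since 7 members fell by at least 1.2-fold (24.1%), as did 10.2% of all tested genes.

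**Figure D1:**
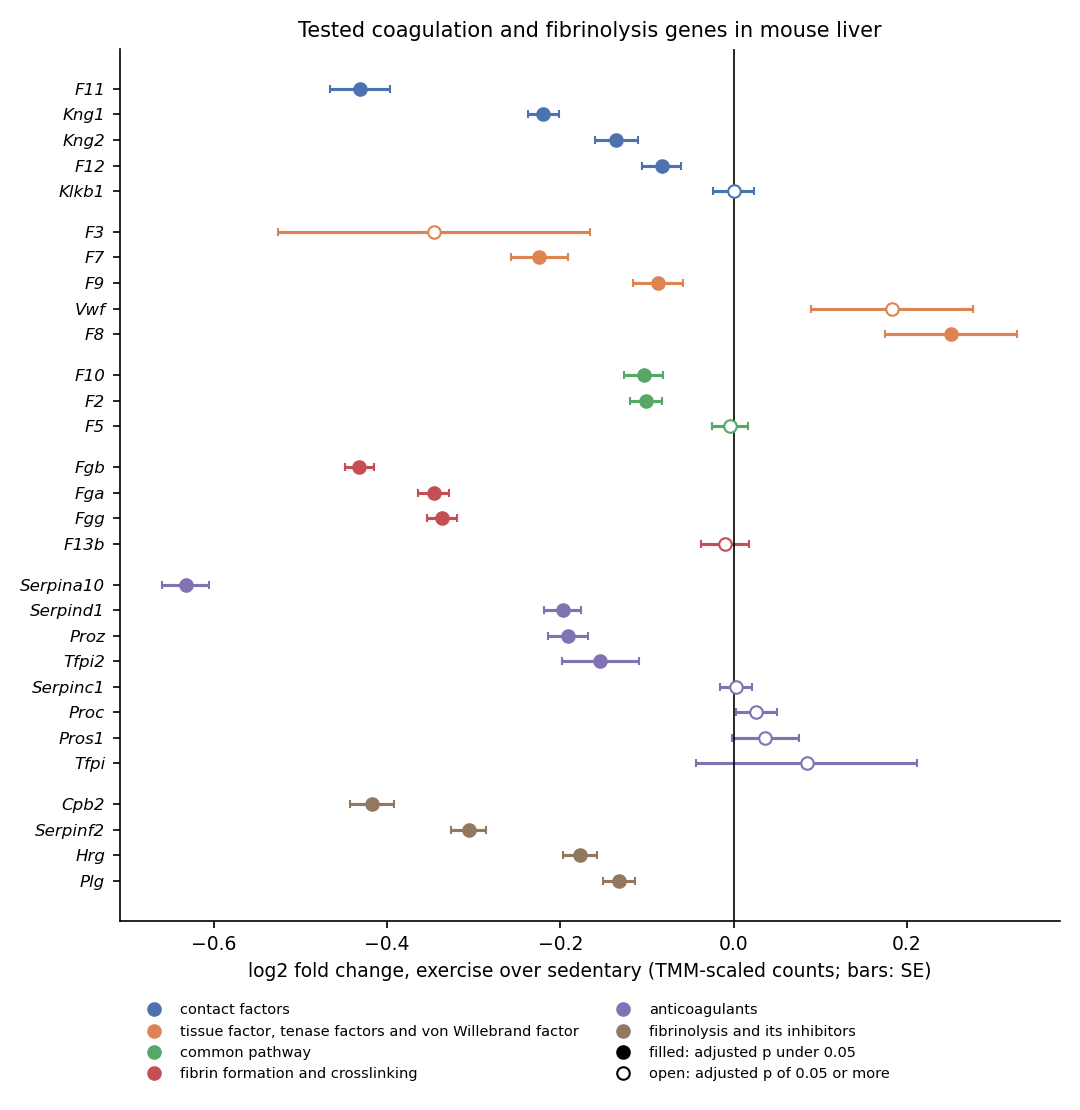
Log2 fold change of each of the 29 tested members on the x axis, exercise over sedentary from TMM-scaled counts, with genes grouped by role. Bars are standard errors, filled points passed the test and open points did not. Points left of 0, 19 of them filled, are lower in exercise, and the only filled point right of 0 is F8.

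The direction of the smaller changes depended on how libraries were scaled. TMM set the exercise libraries apart from the sedentary ones, with factors of 1.025 to 1.031 in exercise and 0.9716 to 0.977 in sedentary libraries. With library totals alone 13 members fell and 8 rose, and on the TPM scale 12 fell and 7 rose. With limma on log2(FPKM + 1), 12 fell and 4 rose. Over all 10266 tested genes, 1203 fell and 3536 rose with library totals. On the TPM scale 915 of them fell and 3716 rose, and with limma on log2(FPKM + 1) 1099 fell and 2868 rose. The median over all tested genes was 0.08 with library totals and 0.10 on the TPM scale. Under TMM and all 6 other scalings tried, 12 members were lower and past the threshold (41.4%), beside 8.49% of all tested genes. They are Serpina10, Fgb, F11, Cpb2, Fga, Fgg, Serpinf2, F7, Kng1, Serpind1, Proz and Hrg. Across the 7 scalings the smallest fall was 4.69% for Hrg, 5.35% for Proz, 5.95% for Serpind1, 7.49% for Kng1 and 7.63% for F7. The other 7, Tfpi2, Kng2, Plg, F10, F2, F9 and F12, were lower by 5.60% to 10.1% and passed under some scalings only. If each group is treated as 1 sample with an assumed biological variation of 0.1, no member passed with edgeR (4 had an unadjusted p under 0.05).

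**Figure D2:**
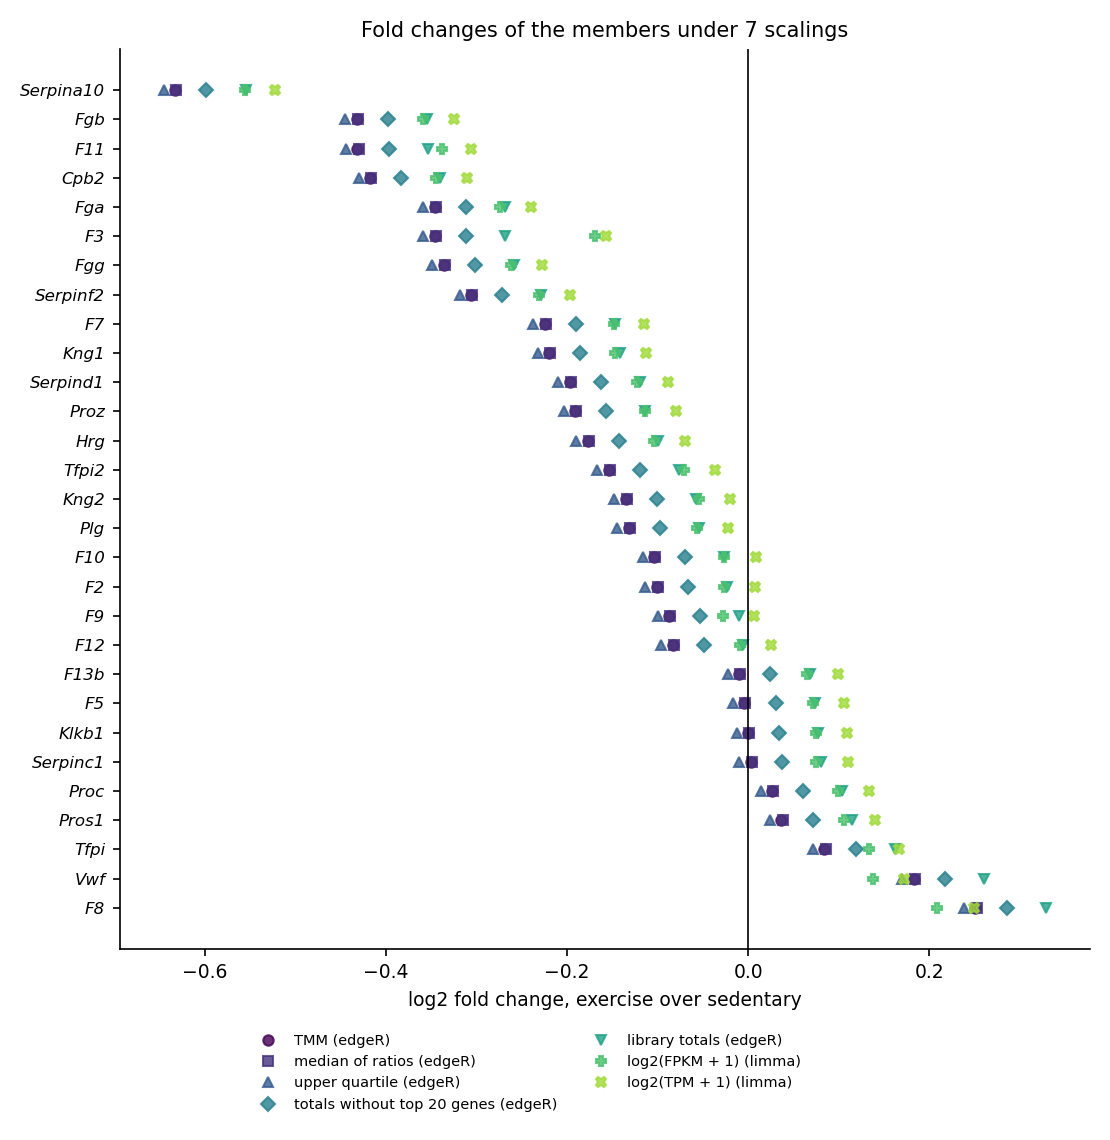
Log2 fold changes of the tested members under 7 scalings, exercise over sedentary on the x axis, genes sorted by the TMM value. The 12 members lower under every scaling stay left of 0 for all symbols. So do Tfpi2, Kng2 and Plg, which passed under some scalings only, and F3, which did not pass with TMM, while F12, F9, F2 and F10 cross 0 on the TPM scale.

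Among the contact factors, 4 of 5 fell (beside 19.0% of all tested genes) and Klkb1 did not pass. The median log2 fold change of the 5 was −0.14. F11 encodes factor XI, a protease precursor that activates factor IX (gene ID 109821, chr8:45240659-45262055). F11 stood at 74.9, 75.6 and 73.8 CPM in exercise libraries, against 98.3, 101 and 103 CPM in sedentary libraries. All exercise values lay below all sedentary values. F11 fell by 25.9% (log2 fold change −0.43, SE 0.03, edgeR adjusted p = 8.66e-15), and by 19.1% to 26.5% across the 7 scalings. Klkb1, which encodes plasma prekallikrein, lies 4.63 kb from F11 on chromosome 8 (chr8:45266688-45294835). Klkb1 had 340, 333 and 328 CPM in exercise libraries, against 335, 333 and 333 CPM in sedentary libraries. These ranges overlapped, and the log2 fold change was 0.00 (SE 0.02, edgeR adjusted p = 0.999). Within a library, the count of F11 was 0.224 of that of Klkb1 in exercise and 0.302 in sedentary libraries, a ratio that no scaling can change. This pair was chosen after its values were seen, so the ratio is a description and no test is given.

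Kng1 and Kng2 encode kininogens, which carry prekallikrein and factor XI in plasma and release bradykinin. Kng1 had 2198, 2231 and 2208 CPM in exercise libraries, against 2564, 2574 and 2590 CPM in sedentary libraries. Kng2 had 262, 263 and 265 CPM in exercise libraries, against 285, 286 and 297 CPM in sedentary libraries. Neither gene overlapped between groups. Kng1 fell by 14.1% (log2 fold change −0.22, SE 0.02, edgeR adjusted p = 1.76e-14) and Kng2 by 8.95% (−0.14, SE 0.02, adjusted p = 1.69e-05). The share of Kng2 in the summed TPM of both genes was 12.9% ± 0.0676 in exercise and 12.2% ± 0.170 in sedentary libraries (SD, n = 3 each, exact permutation p = 0.1, the smallest that 3 against 3 allow). Counts of both genes were not whole, so reads shared between near-identical sequences may have been split and this share is uncertain. F12, factor XII, which starts the contact pathway, had 410, 420 and 413 CPM in exercise libraries, against 442, 438 and 437 CPM in sedentary libraries. Its groups did not overlap, and it fell by 5.60% (−0.08, SE 0.02, edgeR adjusted p = 0.00255).

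The factors that act with tissue factor and in the activation of factor X gave 2 lower members, 1 higher and 2 that did not pass. Over all tested genes, 19.0% were lower and 19.1% higher. F7 encodes factor VII, the protease that binds tissue factor. F7 stood at 86.9 CPM in each of the 3 exercise libraries, against 102, 101 and 101 CPM in sedentary libraries. It fell by 14.4% with no overlap (log2 fold change −0.22, SE 0.03, edgeR adjusted p = 2.08e-07). F9, factor IX, had 162, 167 and 161 CPM in exercise libraries, against 173, 169 and 178 CPM in sedentary libraries. The groups lay close but did not overlap, and F9 fell by 5.86% (−0.09, SE 0.03, edgeR adjusted p = 0.0130). F9 did not pass without exercise replicate 3 (adjusted p = 0.0588), without sedentary replicate 3 (0.109) or with DESeq2 (0.0625).

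F8 encodes factor VIII, the cofactor of factor IX, which in mouse liver comes mainly from endothelial cells. F8 had 15.5, 17.2 and 14.8 CPM in exercise libraries, against 13.1, 13.9 and 12.9 CPM in sedentary libraries. Every exercise library was above every sedentary one. F8 rose (log2 fold change 0.25, SE 0.08, edgeR adjusted p = 0.00739), a call lost without exercise replicate 2 (0.19, adjusted p = 0.0809) and with DESeq2 (adjusted p = 0.0639). Vwf, which encodes von Willebrand factor, the plasma carrier of factor VIII and also an endothelial product, had 10.2, 10.9 and 9.02 CPM in exercise libraries, against 9.11, 8.77 and 8.65 CPM in sedentary libraries. The groups overlapped by 1 library, and Vwf did not pass (0.18, SE 0.09, edgeR adjusted p = 0.122), although it did without exercise replicate 3 (0.26, adjusted p = 0.0439) and with library totals in place of TMM (0.26, adjusted p = 0.0200). Of 18 tested liver endothelial markers, 7 were higher in the same libraries (38.9%, beside 19.1% of all tested genes). The other 11 did not pass, and none passed as lower. Their summed level was 237 to 245 TPM in exercise and 204 to 205 TPM in sedentary libraries. On the TPM scale the median log2 fold change over all tested genes was 0.10. The part of these markers in the F8 result was not tested. In bulk tissue, more cells of a type and more RNA per cell cannot be told apart. F3, tissue factor itself, was low at 2.05, 3.00 and 2.99 CPM in exercise libraries, against 3.94, 2.32 and 3.96 CPM in sedentary libraries. Its groups overlapped (−0.35, SE 0.18, edgeR adjusted p = 0.128), and it passed as lower without sedentary replicate 2 (−0.56, adjusted p = 0.0116).

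In the common pathway F10 and F2 fell slightly and F5 did not pass. F10 encodes factor X, the protease that activates prothrombin. F10 had 447, 437 and 431 CPM in exercise libraries, against 480, 465 and 469 CPM in sedentary libraries. F2, prothrombin, had 1610, 1639 and 1610 CPM in exercise libraries, against 1750, 1718 and 1744 CPM in sedentary libraries. Neither gene overlapped between groups. F10 fell by 6.94% (log2 fold change −0.10, SE 0.02, edgeR adjusted p = 2.36e-04) and F2 by 6.77% (−0.10, SE 0.02, adjusted p = 1.81e-05). On the TPM scale both stood at a log2 fold change of 0.01. F5, factor V, the cofactor of factor X, had 563, 569 and 576 CPM in exercise libraries, against 567, 573 and 573 CPM in sedentary libraries, with overlap (−0.00, SE 0.02, edgeR adjusted p = 0.902). The summed TPM of the 3 genes was 1601 ± 12.2 in exercise and 1585 ± 7.23 in sedentary libraries (SD, n = 3 each, exact permutation p = 0.2), and their summed TMM-scaled level was 2628 ± 15.8 CPM in exercise and 2780 ± 20.6 CPM in sedentary libraries.

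F7, F10 and Proz lie next to each other on chromosome 8, with 1.5 kb between F7 and F10 and 3.91 kb between F10 and Proz. The pairs compared here were chosen after their values were seen, so no test is given. Within a library the count of F7 was 0.198 of that of F10 in exercise and 0.215 in sedentary libraries, a difference of −8.01% with no overlap. The ratio of Proz to F10 was 0.962 in exercise and 1.02 in sedentary libraries, also without overlap. The ratio of F7 to Proz overlapped between the groups.

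**Figure D3:**
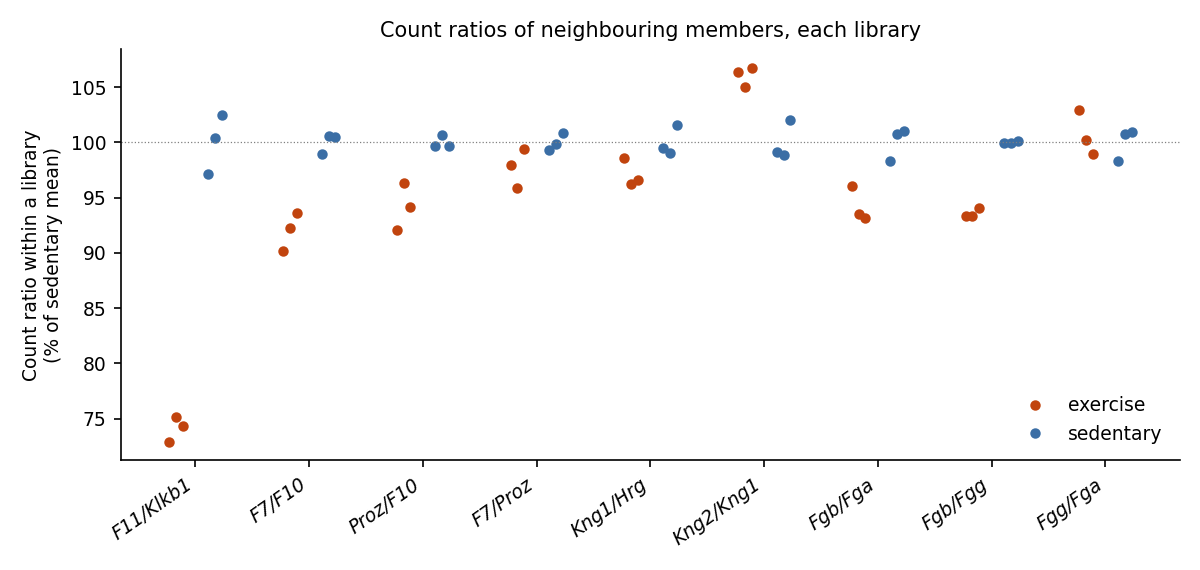
Ratio of the counts of neighbouring member genes within each library, as a percentage of the sedentary mean on the y axis, which does not start at 0, with 3 exercise and 3 sedentary libraries a pair. The ratio of F11 to Klkb1 is 25.9% lower in exercise, while the other pairs differ by less than 10%. All pairs were chosen after their values were seen.

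The genes of the 3 fibrinogen chains were the most abundant members by level per length and fell together. Across the 6 libraries Fgb averaged 4476 FPKM, Fgg 3062 FPKM and Fga 2580 FPKM, ranks 23, 36 and 40 among all genes. Fgb, the β chain (gene ID 110135, chr3:83042246-83049863), had 5374, 5248 and 5441 CPM in exercise libraries, against 7237, 7186 and 7252 CPM in sedentary libraries. Fga, the α chain (gene ID 14161, chr3:83026153-83033627), had 5713, 5730 and 5966 CPM in exercise libraries, against 7519, 7285 and 7330 CPM in sedentary libraries. Every exercise library lay well below every sedentary one for both chains. Fgg, the γ chain (gene ID 99571, chr3:83007724-83015056), had 3857, 3768 and 3874 CPM in exercise libraries, against 4851, 4817 and 4852 CPM in sedentary libraries, again with no overlap. Fgb fell by 25.9% (log2 fold change −0.43, SE 0.02, edgeR adjusted p = 1.74e-26), Fga by 21.3% (−0.35, SE 0.02, adjusted p = 8.79e-22) and Fgg by 20.8% (−0.34, SE 0.02, adjusted p = 8.03e-22).

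Fibrinogen is assembled from equal numbers of its 3 chains. Summed over the chain genes, the level was 11613 ± 210 TPM in exercise and 14034 ± 32.3 TPM in sedentary libraries (SD, n = 3 each, ratio 0.827, exact permutation p = 0.1). The chains took 1.51% to 1.56% of all counts in exercise libraries and 1.88% to 1.90% in sedentary libraries. The share of Fgb among the chains was 43.4% ± 0.162 in exercise and 44.9% ± 0.20 in sedentary libraries (exact permutation p = 0.1, the smallest possible). The share of Fgg was 30.8% ± 0.245 in exercise and 29.8% ± 0.0876 in sedentary libraries (exact permutation p = 0.1), and that of Fga 25.8% ± 0.387 in exercise and 25.2% ± 0.287 in sedentary libraries (exact permutation p = 0.2). The count ratio of Fgb to Fga differed by −5.78% in exercise relative to sedentary libraries and that of Fgb to Fgg by −6.43%, both without overlap, while the ratio of Fgg to Fga overlapped. These pairs for count ratios were chosen after their values were seen, so no test is given. The windows of Fgb and Fga, shown above, held all 4 motifs and that of Fgg held CTGGGA only.

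**Figure D4:**
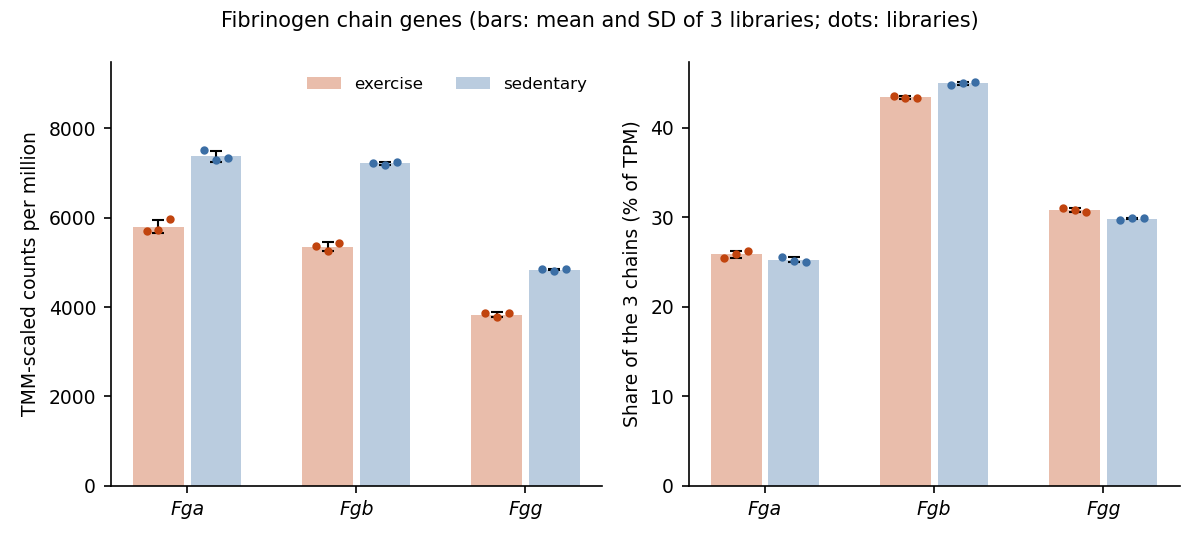
Left, TMM-scaled CPM of the fibrinogen chain genes. Right, the share of each chain in their summed TPM. Bars are means of 3 libraries with SD, and dots are libraries, exercise left of sedentary. All chains are lower in exercise, and the share of Fgb is 43.4% in exercise and 44.9% in sedentary libraries.

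Fibrin is crosslinked by factor XIII. F13b, its carrier subunit, had 197, 203 and 196 CPM in exercise libraries, against 195, 207 and 198 CPM in sedentary libraries, with overlap (log2 fold change −0.01, SE 0.03, edgeR adjusted p = 0.817). F13a1, the catalytic subunit, which macrophages and platelets make, had 3, 5 and 3 reads in exercise and 4, 7 and 7 reads in sedentary libraries, too few to test. Of 15 tested markers of Kupffer cells and macrophages, 12 were lower (80.0%, beside 19.0% of all tested genes) and none was higher. Their summed level was 543 to 555 TPM in exercise and 630 to 642 TPM in sedentary libraries. Platelet markers were near the limit of detection, with 1 of 14 listed genes tested, that 1 higher, and a summed level of 6.03 to 7.0 TPM in exercise and 5.45 to 6.04 TPM in sedentary libraries. Their part in any result here was not tested.

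The anticoagulants divided, with 4 of 8 tested genes lower (beside 19.0% of all tested genes) and 4 that did not pass. Serpina10 had the lowest fold change of all members. It encodes the protein Z-dependent protease inhibitor, which blocks activated factors X and XI (gene ID 217847, chr12:103616675-103631490). Serpina10 had 172, 175 and 173 CPM in exercise libraries, against 260, 272 and 274 CPM in sedentary libraries. The groups lay far apart and Serpina10 fell by 35.5% (log2 fold change −0.63, SE 0.03, edgeR adjusted p = 3.3e-25), with a range of 30.4% to 36.1% across the scalings. Proz encodes protein Z, its cofactor against factor X. Proz had 421, 430 and 414 CPM in exercise libraries, against 488, 478 and 477 CPM in sedentary libraries. Proz fell by 12.4% without overlap (−0.19, SE 0.02, edgeR adjusted p = 1.32e-09). The ratio of Serpina10 to Proz counts was 0.411 in exercise and 0.559 in sedentary libraries, a pair chosen after its values were seen.

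Serpind1, which encodes the thrombin inhibitor heparin cofactor II, had 522, 515 and 510 CPM in exercise libraries, against 592, 588 and 594 CPM in sedentary libraries. It fell by 12.8% without overlap (log2 fold change −0.20, SE 0.02, edgeR adjusted p = 1.3e-10). Tfpi2, a Kunitz-type protease inhibitor, had 47.7, 43.1 and 44.1 CPM in exercise libraries, against 49.2, 50.9 and 49.9 CPM in sedentary libraries. It fell by 10.1% (−0.15, SE 0.04, edgeR adjusted p = 0.00462), with exercise replicate 1 close to the sedentary values. Serpinc1 encodes antithrombin, the main plasma inhibitor of thrombin and factor X, and at 1602 FPKM it was the most abundant anticoagulant gene. Serpinc1 had 2178, 2128 and 2179 CPM in exercise libraries, against 2182, 2112 and 2179 CPM in sedentary libraries. These values overlapped fully (0.00, SE 0.02, edgeR adjusted p = 0.925).

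The protein C system did not pass with TMM scaling either. Proc, which encodes protein C, the protease that inactivates factors V and VIII, had 444, 437 and 415 CPM in exercise libraries, against 426, 422 and 425 CPM in sedentary libraries (log2 fold change 0.03, SE 0.02, edgeR adjusted p = 0.405). Pros1, its cofactor protein S, had 73.0, 68.7 and 72.6 CPM in exercise libraries, against 68.0, 67.9 and 73.1 CPM in sedentary libraries (0.04, SE 0.04, edgeR adjusted p = 0.481). Both overlapped between groups. With library totals in place of TMM 7 members passed as higher beside F8, namely Proc, Pros1, Serpinc1, Klkb1, F5, F13b and Vwf, with log2 fold changes of 0.10, 0.11, 0.08, 0.08, 0.07, 0.07 and 0.26. All of these except Vwf also passed as higher on the TPM scale. Proc, Serpinc1 and F5 did so with limma on log2(FPKM + 1) as well (limma adjusted p = 0.0248, 0.0176 and 0.0427). Proc also passed without the 20 top genes in the totals (0.06, edgeR adjusted p = 0.0364). Tfpi, tissue factor pathway inhibitor, was low at 5.34, 5.73 and 6.41 CPM in exercise libraries, against 6.81, 4.64 and 5.03 CPM in sedentary libraries, and overlapped (0.08, SE 0.13, edgeR adjusted p = 0.639). Thbd, the endothelial receptor of thrombin that switches on protein C, had 63, 68 and 65 reads in exercise and 51, 55 and 66 reads in sedentary libraries, just under the level tested at 0.993 FPKM. Summed over all 9 anticoagulants, the level was 3360 ± 42.1 TPM in exercise and 3274 ± 29.1 TPM in sedentary libraries (SD, n = 3 each, exact permutation p = 0.1). By TMM-scaled counts the direction of this sum turned, with 3827 ± 31.8 CPM in exercise and 4049 ± 45.8 CPM in sedentary libraries over the 8 tested genes.

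With TMM scaling all 4 tested fibrinolysis genes fell, both the zymogen and its inhibitors, beside 19.0% of all tested genes. The median log2 fold change of the 4 was −0.24. Cpb2 encodes a carboxypeptidase, also called thrombin-activatable fibrinolysis inhibitor, which trims fibrin so that less plasminogen binds. Cpb2 had 288, 310 and 305 CPM in exercise libraries, against 403, 403 and 399 CPM in sedentary libraries. Serpinf2, the plasmin inhibitor α2-antiplasmin, had 724, 721 and 737 CPM in exercise libraries, against 918, 888 and 892 CPM in sedentary libraries. Neither gene overlapped. Cpb2 fell by 25.1% (−0.42, SE 0.03, edgeR adjusted p = 3.31e-19) and Serpinf2 by 19.1% (−0.31, SE 0.02, adjusted p = 2.69e-17).

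Hrg encodes histidine-rich glycoprotein, which binds plasminogen and fibrinogen. Hrg had 928, 964 and 951 CPM in exercise libraries, against 1072, 1081 and 1061 CPM in sedentary libraries. Plg, plasminogen, had 2931, 2934 and 2868 CPM in exercise libraries, against 3270, 3128 and 3171 CPM in sedentary libraries. The groups did not overlap for either gene. Hrg fell by 11.6% (log2 fold change −0.18, SE 0.02, edgeR adjusted p = 4.41e-10) and Plg by 8.75% (−0.13, SE 0.02, adjusted p = 7.94e-08). Plg did not pass with limma on log2(FPKM + 1) (−0.06, limma adjusted p = 0.0679) or on the TPM scale (−0.02, limma adjusted p = 0.395). Within a library, the count ratio of Cpb2 to Plg differed by −18% in exercise relative to sedentary libraries and that of Serpinf2 to Plg by −11.3%, as descriptions of pairs chosen after their values were seen. The plasminogen activators were barely detected. Plat had 4, 9 and 9 reads in exercise and 8, 7 and 5 reads in sedentary libraries, and Plau 21, 17 and 15 reads in exercise and 31, 14 and 20 reads in sedentary libraries.

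**Figure D5:**
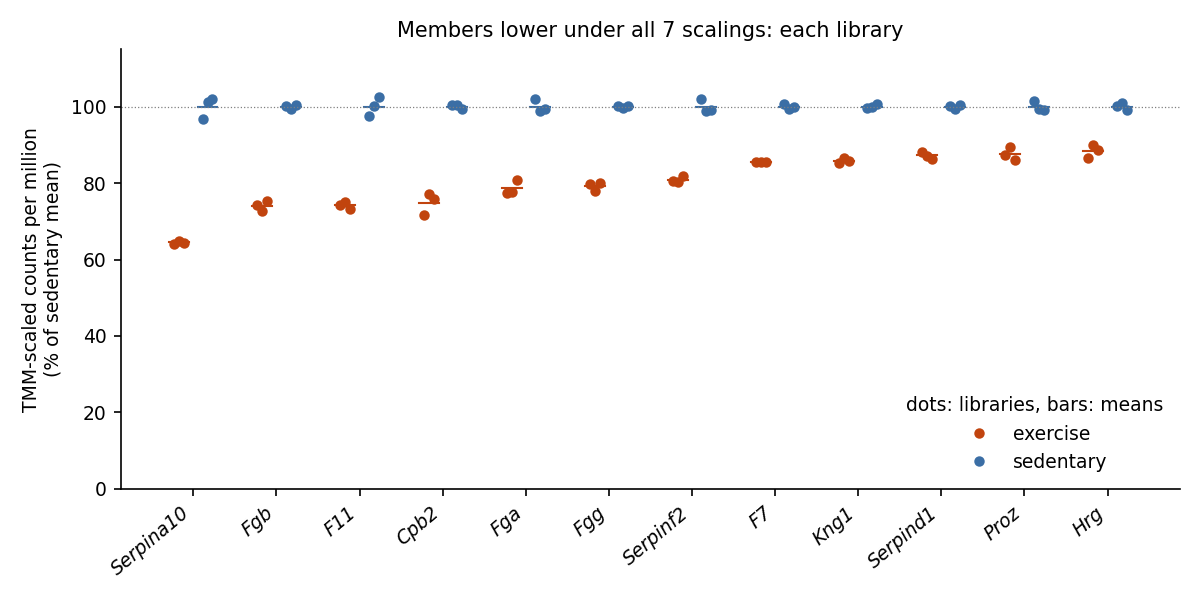
TMM-scaled CPM of the 12 members lower under all 7 scalings, as a percentage of the sedentary mean on the y axis, with each dot 1 library and each bar a group mean. In every gene the 3 exercise libraries lie below the 3 sedentary libraries, from Serpina10 at 35.5% lower to Hrg at 11.6% lower.

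The sum of all 33 members was 22667 ± 183 TPM in exercise and 25354 ± 63.3 TPM in sedentary libraries (SD, n = 3 each, ratio 0.894, exact permutation p = 0.1). In counts the members made up 3.06% to 3.10% of exercise libraries and 3.48% to 3.52% of sedentary libraries. Contact factors summed to 2515 ± 10.4 TPM in exercise and 2663 ± 18.7 TPM in sedentary libraries, and fibrinolysis genes to 3281 ± 23.8 TPM in exercise and 3503 ± 35.3 TPM in sedentary libraries (exact permutation p = 0.1 for each).

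Genes for the vitamin K cycle and for the maturation and secretion of clotting factors passed the test about as often as all tested genes. Of 13 tested, 2 fell (15.4%, beside 19.0% of all), 3 rose (23.1%, beside 19.1%) and 8 did not pass. P4hb and Pdia3, disulfide isomerases of the endoplasmic reticulum, fell with log2 fold changes of −0.15 (SE 0.02, edgeR adjusted p = 4.54e-09) and −0.16 (SE 0.02, adjusted p = 1.2e-07), and neither passed on the TPM scale (−0.04 and −0.05, limma adjusted p = 0.0887 and 0.103). Surf4 and Lman1, which export cargo from the endoplasmic reticulum, Lman1 carrying factors V and VIII, rose with log2 fold changes of 0.14 (SE 0.03, edgeR adjusted p = 3.94e-05) and 0.13 (SE 0.03, adjusted p = 6.31e-05). Vkorc1, the vitamin K reductase that warfarin blocks, had 107, 104 and 104 CPM in exercise libraries, against 96.2, 98.6 and 93.4 CPM in sedentary libraries, and rose without overlap (0.12, SE 0.03, edgeR adjusted p = 0.00251). Ggcx, the carboxylase of the vitamin K-dependent factors, had 97.6, 104 and 100 CPM in exercise libraries, against 94.6, 98.9 and 93.8 CPM in sedentary libraries, with overlap (0.07, SE 0.03, edgeR adjusted p = 0.104). Ggcx passed as higher with library totals (0.15, adjusted p = 3.81e-04), without the 20 top genes in the totals (0.10, adjusted p = 0.0123), on the TPM scale (0.12, limma adjusted p = 0.0294) and without sedentary replicate 2 (0.09, adjusted p = 0.0486).

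Among other inhibitors and proteases linked to clotting, 14 of 20 tested genes were lower after exercise (70.0%, beside 19.0% of all tested genes). None was higher (beside 19.1% of all), and the median log2 fold change was −0.21. Fgl1, fibrinogen-like 1, had 247, 237 and 246 CPM in exercise libraries, against 551, 612 and 607 CPM in sedentary libraries, and fell by 1.28 on the log2 scale (SE 0.03, edgeR adjusted p = 5.14e-37). Itih4, a heavy chain of the inter-α-inhibitor family, fell by 0.72 (SE 0.02, adjusted p = 1.32e-34), Fn1, fibronectin, by 0.48 (SE 0.02, adjusted p = 5.82e-27) and Pzp, an α2-macroglobulin type inhibitor, by 0.37 (SE 0.02, adjusted p = 2.25e-24). Among receptors and clearance genes 4 of 11 tested fell and 4 rose (36.4% each, beside 19.0% and 19.1% of all tested genes). Lrp1, a scavenger receptor of factor VIII and of protease complexes, fell (−0.21, SE 0.02, edgeR adjusted p = 6.25e-12), as did Sort1, sortilin (−0.46, SE 0.05, adjusted p = 3.08e-10), and F2r, a thrombin receptor (−0.34, SE 0.05, adjusted p = 7.55e-08). Eno1, an enolase that can bind plasminogen on cells, rose (0.16, SE 0.02, edgeR adjusted p = 7.97e-08). Procr, the endothelial protein C receptor, was too low to test at 0.557 FPKM in exercise and 0.947 FPKM in sedentary libraries.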

How the data were processed

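The deposited table gives a read count, an FPKM and a TPM for each gene in 6 mouse liver libraries, per the file headers. The authors' read counts are estimated counts, since 1165 of 16123 genes had values that were not whole, and they were rounded here. The authors' FPKM values, scaled by transcript length and library size, and the deposited TPM values were used as given. Columns of averages, 6 in number, were not used. The submitters' processing notes name GRCm38.p6 as build and cutadapt, featureCounts and MultiQC as tools. Their versions, the aligner, the annotation and the use of strand in counting are not stated there.

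Counts were compared with edgeR 4.0.16 in R 4.3.3 (TMM scaling, quasi-likelihood F test, two-sided, exercise over sedentary, no covariates) over the 10266 genes whose FPKM averaged 1 or more, with Benjamini-Hochberg adjustment over these genes and a threshold of 0.05. The SE was obtained from the log2 fold change and its F statistic. Sums and shares were compared with a two-sided exact permutation test over 20 assignments, which cannot go below 0.1. Other scalings, filters and tests (DESeq2 1.42.0, limma 3.58.1, left-out libraries, assumed variation) were tried. Replicate numbers of the titles did not pair the libraries. Members past the threshold were named with all values, as were up to 4 genes of each other list and genes chosen for their role, of which 1 is not reported here. The members and lists were chosen with earlier results of these data known. Coordinates and promoter windows are from RefSeq, in which all 33 members matched by gene ID.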

Additional observations from a re-analysis of the deposited data

How the results depend on the processing

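Of 29 tested members, 19 were lower and 1 higher with TMM scaling. The lower count was 12 with limma on log2(FPKM + 1), log2(TPM + 1) or log2(FPKM + 0.1). It was 0 at an assumed variation of 0.1 or 0.2, where 4 and 0 members had an unadjusted p under 0.05 with edgeR. The higher count was 8 with library totals, 2 after removal of the 20 top genes from the totals, 4, 7 and 4 with those limma fits, and 0 with DESeq2, with a minimum mean FPKM of 5, and at both assumed variations. Over all 10266 tested genes the limma fits called 1099, 915 and 1096 lower and 2868, 3716 and 2856 higher. Library totals called 3536 higher, totals without the 20 top genes 2578 and DESeq2 1272. At assumed variations of 0.1 and 0.2, 126 and 18 were lower and 50 and 5 higher. With 1 library left out, 18 to 20 members were lower and 0 to 2 higher, 0 without exercise replicate 2 and 2 without exercise replicate 3. Of the 20 members that passed, 18 also passed with DESeq2. The median log2 fold change of the members was −0.058 with library totals, −0.148 with upper quartile scaling, −0.101 without the 20 most abundant genes, −0.057, −0.022 and −0.057 with the limma fits and −0.160 with the minimum of 5, and −0.145 to −0.134 with 1 library left out. On the TPM scale the direction changed for F12 (0.025), F9 (0.0064), F2 (0.0076) and F10 (0.0083). F5 and F13b turned higher with library totals (0.074 and 0.068) and TPM (0.11 and 0.10), and F5 also with limma on log2(FPKM + 1) and log2(FPKM + 0.1) (0.072 and 0.073). Members that passed in neither fit are given no direction. The log2 ratio of the summed level was −0.16 in TPM and −0.196 in FPKM. It was −0.183 in counts divided by library totals, without TMM factors. The sum over all members is not given for TMM-scaled counts. The share of Kng2 differed by 0.704 percentage points in TPM and 0.543 in CPM, and that of Fgg by 0.963 and 0.678. The minimum of 5 leaves out F8, at a mean of 1.76 FPKM, with F3, Vwf and Tfpi, so F8 could not be called there. In the other cases the cause was not tested.

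In the vitamin K and secretion list the lower count was 4 with upper quartile scaling and with the minimum of 5, and 0 on the TPM scale and at both assumed variations. Its higher count was 5 with library totals and with TPM, and 0 at both assumed variations. Among the other inhibitors 2 and 0 were lower at assumed variations of 0.1 and 0.2. Of these, 1 was higher with library totals, without the 20 most abundant genes and with limma on FPKM at either pseudocount, and 2 with TPM. Receptors had 0 lower and 0 higher at both assumed variations. Regulators had 7 lower with library totals, DESeq2 and each limma fit, 3 and 1 at the assumed variations, and 8 to 10 with 1 library left out. Their higher count was 13 with library totals, 12 with TPM and 0 at both assumed variations. Of the single-member results under an alternative, 451 kept their side of the threshold with no counted turn, 70 no longer passed, 16 newly passed and 10 turned. Direction was compared only where at least 1 of the compared fits passed.

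With the replicate number as a block, the replicate block fit, 19 members were lower and 1 higher, the same genes, and no call of another named gene changed. Deviations of libraries that share a number correlated at −0.0266, 0.00174 and 0.0262 over 8829 genes, so the libraries share only a number. Plau, Plat and F13a1 are limited by depth, and F8, Vwf, Tfpi and F3 rest on few reads. Thbd was left out by the minimum FPKM and did not pass without it (0.14, edgeR adjusted p = 0.544).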

Other observations

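Of 30 tested transcriptional and cytokine regulators linked to clotting genes in liver, 11 fell (36.7%, beside 19.0% of all tested genes) and 7 rose after exercise (23.3%, beside 19.1%). Onecut1, a hepatocyte transcription factor, had 2.59, 2.57 and 2.07 CPM in exercise libraries, against 16.6, 15.5 and 16.1 CPM in sedentary libraries, and fell by 2.73 on the log2 scale (SE 0.11, edgeR adjusted p = 9.79e-26). Hnf4a, a nuclear receptor that many hepatocyte genes depend on, had 800, 780 and 804 CPM in exercise libraries, against 664, 644 and 662 CPM in sedentary libraries. Hnf4a rose without overlap (0.27, SE 0.02, edgeR adjusted p = 2.55e-15). Stat3, which carries the interleukin-6 signal to the nucleus, had 113, 114 and 110 CPM in exercise libraries, against 138, 130 and 133 CPM in sedentary libraries. Stat3 fell (−0.25, SE 0.03, edgeR adjusted p = 4.03e-09). Nr1i3, the constitutive androstane receptor, rose (0.63, SE 0.03, edgeR adjusted p = 2.15e-23), and Esr1, the oestrogen receptor, fell (−0.96, SE 0.09, adjusted p = 1.99e-12).

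Other cell type markers also differed between the groups, and their part in the results for the clotting genes was not tested. Stellate cell and fibroblast markers summed to 253 to 258 TPM in exercise and 192 to 197 TPM in sedentary libraries. Of 12 tested, 6 were higher (50.0%, beside 19.1% of all tested genes) and 1 lower (8.3%, beside 19.0%). Cholangiocyte markers summed to 42.8 to 45.3 TPM in exercise and 79.9 to 83.0 TPM in sedentary libraries, with 1 of 2 tested genes lower. That gene, Spp1, averaged 30.5 FPKM in exercise and 60.7 FPKM in sedentary libraries, and the other tested marker, Sox9, did not pass. Erythroid markers summed to 430 to 452 TPM in exercise and 476 to 493 TPM in sedentary libraries. Of 5 tested, 4 were lower (80.0%, beside 19.0% of all tested genes). Hepatocyte markers had 8 of 15 lower (53.3%, beside 19.0% of all) and 4 higher (26.7%, beside 19.1%). Neutrophil and lymphocyte markers had 2 tested genes each, none past the threshold with edgeR. Summed levels were 10.97 to 21.3 TPM over all libraries for neutrophil markers and 7.13 to 8.37 TPM for lymphocyte markers.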
